A study of Mus musculus with 9 samples.

Results

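Both mutants were set together against wild type (WT) to find genes whose expression moved the same way when either set of caudal transcription factors was lost. The mutant side held 6 RNA sequencing libraries, 3 of CdxKO cells (Cdx1/2/4-/-) and 3 of T/BraKO cells (T/Bra-/-), and the other side held 3 WT libraries, which are all 9 libraries of the series. Of 24736 genes in the table, 14215 were tested. A gene was kept when the DESeq2 fit, in which the replicate number was a block, gave it an adjusted p within 0.05 and when its mean normalised count lay on the same side of WT in each mutant. This gave 76 genes, 50 higher and 26 lower on the mutant side. No call fell on opposite sides of WT.

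The cultures were mouse embryonic stem cells driven to caudal epiblast-like cells (CEpiLCs), which model the progenitors of the posterior embryo. The 3 groups were treated alike, with bFGF at 10 ng/ml and the WNT secretion inhibitor LGK974 at 5 uM throughout, and with the GSK3 inhibitor CHIR99021 added for the last part of the culture, until collection at 72 h, on day 3. The study's methods derive its lines from XY HM1 TetON cells, which served as WT. The labels give a genotype but no clone, so each genotype may rest on 1 line, and a difference of the WT line from both mutant lines cannot be told apart from an effect of the mutations.

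CDX proteins are homeobox factors and T (also called Brachyury) is a T-box factor, and both act downstream of WNT and FGF signalling in the caudal epiblast, the pool of cells that builds the trunk. There WNT ligands such as Wnt3a and the FGF ligands hold the progenitor state, and the CDX and T proteins bind regulatory elements of many of the same genes. The question here was which genes moved in the same direction in each mutant.

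The targeted genes were examined first. T had 10900, 11070 and 14760 normalised counts in WT, 13928, 6285 and 19806 in CdxKO and 1777, 2214 and 2894 in T/BraKO. Cdx2 had 6106, 2699 and 3793 in WT, 1625, 706 and 761 in CdxKO and 7541, 3653 and 4868 in T/BraKO. Cdx4 lay between 1.25 and 1.88 in CdxKO, against 60 to 161 in WT, and Cdx1 lay between 193 and 320 against 444 to 626. Each targeted gene was thus low in its own mutant, although transcripts of T, Cdx1 and Cdx2 persisted, and none was called in the pooled comparison (adjusted p 0.913 for T, 0.99 for Cdx1, 0.959 for Cdx2 and 0.982 for Cdx4, DESeq2). The lines also differed elsewhere. Ddx3y on the Y chromosome had no count in CdxKO, against 1664 to 2754 in the other groups. Hprt, the purine salvage enzyme that HM1 cells lack, had 28.1, 20.3 and 16.8 normalised counts in WT and 25.1, 20.5 and 21.6 in CdxKO, but 3590, 4086 and 4138 in T/BraKO. Hprt was among the 50 genes called higher (log2 fold change 6.52, SE 1.73, adjusted p 0.0355), yet its change came from T/BraKO (log2 fold change 7.52) and not from CdxKO (0.05). It is therefore counted but not described further as a shared gene.

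Total expected counts ranged from 25124337 to 34705355 per library, and the ribosomal gene Rn45s took 0.343% to 4.21% of them. Its share was highest in replicate 1, at 4.21% in CdxKO, 3.69% in T/BraKO and 1.69% in WT, and at most 0.992% in replicates 2 and 3. All 8 CEpiLC markers were detected, with a summed TPM (a transcript level scaled per length and per library) of 1045 to 1257 in WT, 618 to 1129 in CdxKO and 736 to 1086 in T/BraKO. Wnt3a was the only one of these markers called. The list holds the targeted genes T, Cdx1 and Cdx2, so its sum is not independent of the mutations. T had 386 to 510 TPM in WT and 61 to 98.5 in T/BraKO. Cdx2 had 92 to 206 TPM in WT and 24 to 54.3 in CdxKO. Fibroblast markers, listed because the stem cells were grown on feeders, summed to 38.9 to 69 TPM in WT, 47.3 to 85 in CdxKO and 36.6 to 58.2 in T/BraKO, and none of the 8 tested was called. Trophoblast markers summed to at most 4.21 TPM in any library, with Elf5, Tpbpa and Prl3d1 at or under 3 counts everywhere. Extraembryonic endoderm markers summed to 9.75 to 26.2 TPM, blood and endothelium markers to 3.98 to 11.9 TPM and neuron markers to 202 to 291 TPM over all libraries, and none of these lists held a called gene. In these bulk samples, fewer cells of a type and less RNA per cell cannot be told apart.

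The 50 higher genes were 0.352% of the genes tested and the 26 lower genes were 0.183%. Changes were small. The median fold was 1.41 among the higher genes and 1.39 among the lower genes, 5 higher and 3 lower genes passed 2-fold, and 45 of the 76 changed by less than 1.5-fold. The rule fixes the direction of the means. The blocked fit on the same libraries also favours genes whose pairs agree. The counts of pairs and of libraries that follow are therefore high in part by construction, and nothing is read from them. In 72 genes all 6 mutant libraries lay on the called side of the same-numbered WT library, as 15.1% of all genes tested did in 1 direction or the other, and in the other 4 (Hprt, Wnt7b, Pcdh8 and Elavl2) 5 of 6 did. All 6 mutant libraries lay above all 3 WT libraries for 9 of the higher genes, and below them for 11 of the lower genes, against 0.788% and 0.739% of all genes tested. TPM gave the same direction in each mutant for all 76. All 76 are annotated as protein-coding.

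The size of this set depended on how the spread was estimated. Without the replicate block DESeq2 called 2 genes higher (Zdbf2 and C77080) and 3 lower (Kitl, Wnt3a and Ptpn13), all 5 within the 76. The edgeR quasi-likelihood test with the block called 1, Mest, and gave 1434 of 14767 genes an unadjusted p within 0.05. When the mutants were kept as separate genotypes and their mean was set against WT, DESeq2 called 272 genes higher and 189 lower in both, which held 74 of the 76. Leaving out WT replicate 1 left 7 higher and 3 lower genes, and leaving out WT replicate 2 left 7 and 4. With the block, mutant libraries whose same-numbered WT library is left out no longer enter the contrast with WT. Without WT replicate 3 there were 25 and 9, and without CdxKO replicate 1 there were 25 and 18. Without CdxKO replicate 3 the lower genes rose to 45.

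**Figure D1:**
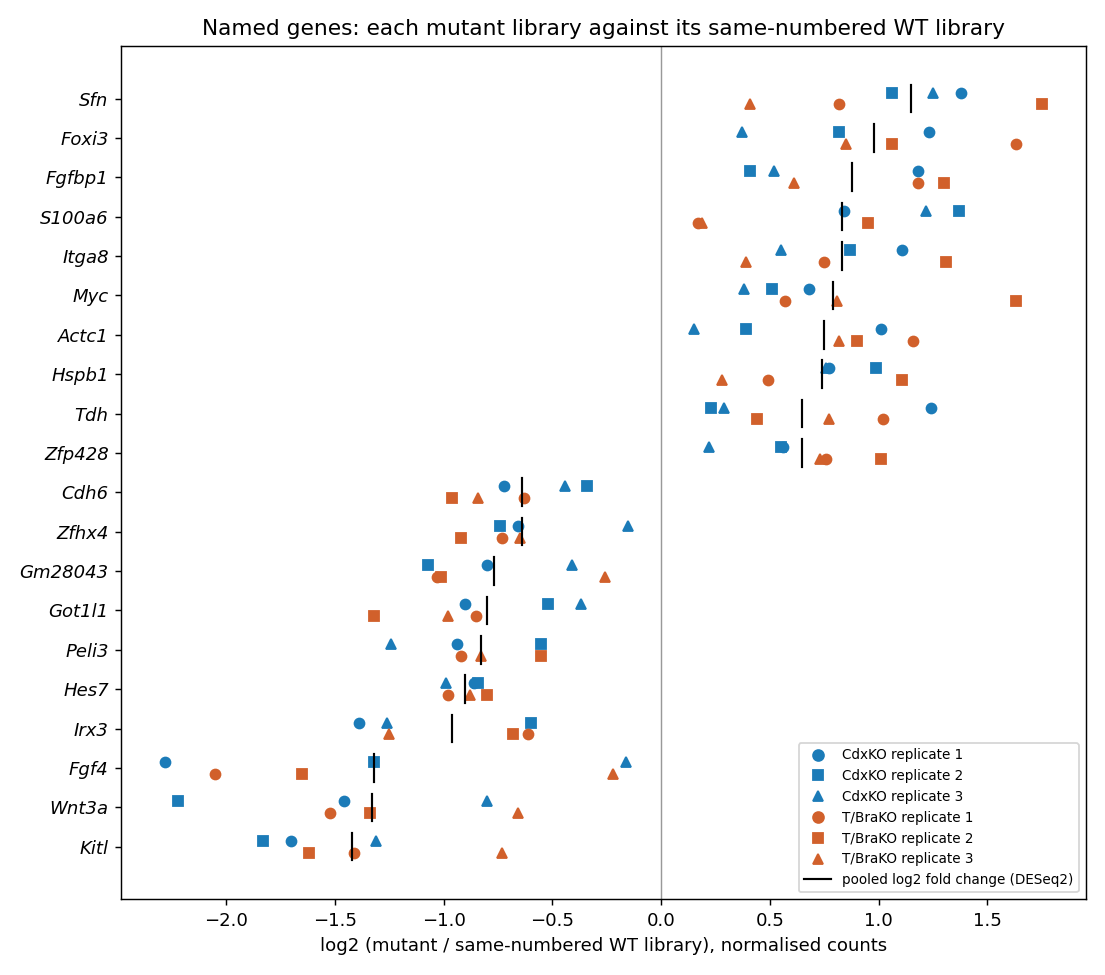
Log2 ratio of the normalised count in each mutant library to the WT library with the same replicate number (x axis), for 10 genes per direction (rows), those with the largest change among called genes that reached 50 normalised counts in a genotype and had all 6 pairs to 1 side. Hprt, Fam43b, Wnt7b and Pcdh8, with larger changes than most of those drawn, did not meet these conditions. Blue points are CdxKO, orange points T/BraKO, marker shapes are replicate numbers and black bars are the pooled log2 fold changes. That no point crosses 0 follows from this choice. The spread within a gene differs, and reaches from -2.28 to -0.16 for Fgf4.

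The 3 lower genes with the largest change, Kitl, Wnt3a and Fgf4, encode secreted ligands. Kitl, the ligand of the receptor tyrosine kinase KIT, had 1046, 570 and 716 normalised counts in WT replicates 1 to 3, 322, 160 and 288 in CdxKO and 395, 186 and 431 in T/BraKO. Every mutant library lay below every WT library. The mean fell from 777 ± 244 in WT to 257 ± 85.6 in CdxKO and 337 ± 132 in T/BraKO (SD, n = 3 each), and the pooled log2 fold change was -1.42 (SE 0.17, adjusted p 4.48e-13, DESeq2). Kitl (chromosome 10, 100015630 to 100100416) was the most strongly changed gene of the lower set, and it remained called when each of the 9 libraries was left out in turn. Its receptor gene Kit, looked up after these values were seen, was not called (log2 fold change -0.06, adjusted p 0.985), and moved apart in the mutants, by -0.53 in CdxKO and by 0.29 in T/BraKO.

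Wnt3a, the WNT ligand of the caudal epiblast and tail bud, had 860, 694 and 591 normalised counts in WT, 314, 149 and 339 in CdxKO and 300, 275 and 373 in T/BraKO. The groups did not overlap, and CdxKO replicate 2 was lowest. Wnt3a (chromosome 11, 59248033 to 59290752) had a pooled log2 fold change of -1.33 (SE 0.20, adjusted p 1.75e-07), with -1.49 in CdxKO and -1.19 in T/BraKO. It remained called with any 1 library left out (adjusted p up to 0.0133). Fgf4, an FGF ligand of the early epiblast, was at 2.69 TPM in WT, against 18.6 TPM for Wnt3a. Fgf4 had 128, 130 and 84.8 normalised counts in WT, 26.3, 51.8 and 76.2 in CdxKO and 30.9, 41.2 and 72.7 in T/BraKO. Replicate 3 of each mutant was close to WT replicate 3, and the other 4 mutant libraries were far below their WT libraries. The pooled log2 fold change of Fgf4 was -1.32 (SE 0.33, adjusted p 0.0216), and it was called in 4 of the 8 fits without 1 library that gave it an adjusted p.

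Ligand genes also stood among those that were higher. Wnt3, a WNT ligand that acts at the primitive streak, had 721, 903 and 1238 normalised counts in WT, 1152, 1121 and 1406 in CdxKO and 1007, 1190 and 1425 in T/BraKO. WT replicate 3 lay within the range of both mutants, but each mutant library exceeded its same-numbered WT library. The pooled log2 fold change of Wnt3 was 0.37 (SE 0.09, adjusted p 0.0196). Wnt7b, another WNT ligand, had 120, 53.2 and 39.2 in WT, 340, 208 and 208 in CdxKO and 105, 180 and 71.8 in T/BraKO. CdxKO lay above WT throughout, while T/BraKO overlapped WT and its replicate 1 was below WT replicate 1. Wnt7b had a pooled log2 fold change of 1.50 (SE 0.39, adjusted p 0.0271), with 1.92 in CdxKO and 0.83 in T/BraKO, and the mutants differed from each other (adjusted p 0.00207). Apln, which encodes the peptide ligand apelin, was higher as well (log2 fold change 0.41, adjusted p 0.0142).

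Of the 19 WNT ligand genes, 16 were tested, 2 were higher (Wnt3 and Wnt7b) and 1 was lower (Wnt3a). The median log2 fold change of the 16 was 0.32, beside 0.008 over all genes tested, with 12 positive and 4 negative. Wnt5a and Wnt8a had pooled log2 fold changes of 0.01 and -0.26, and the mutants lay apart, since Wnt5a had -0.84 in CdxKO and 0.55 in T/BraKO, and Wnt8a had -0.77 and 0.13. Of 20 WNT feedback and target genes, all tested, only Znrf3 was called. Znrf3, an E3 ligase that removes WNT receptors from the cell surface, had 1549, 1736 and 1500 normalised counts in WT, 1843, 2019 and 1677 in CdxKO and 1976, 1974 and 1805 in T/BraKO. Its log2 fold change of 0.24 (SE 0.07, adjusted p 0.0491) was close to the threshold, and it was lost in each of the 9 fits without 1 library. Axin2, the standard readout of WNT activity, had 0.07 (adjusted p 0.93). Every culture had WNT secretion inhibited by LGK974 and the pathway activated by CHIR99021. Axin2 therefore could not show here whether a change of the ligand genes altered WNT activity. The median of the 20 genes was 0.09, with 17 positive.

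Among 11 tested FGF ligands and receptors, 1 was lower (Fgf4) and none higher, with a median of -0.00 and 5 positive. Fgf8, the main FGF ligand of the caudal region, was lower in all 6 pairs and was called in each mutant alone (log2 fold changes -0.65 in CdxKO and -1.56 in T/BraKO), but the mutants differed from each other and the pooled test did not call it (-1.04, adjusted p 0.326). None of the 14 FGF-ERK feedback genes was called (median 0.13, 10 positive). Fgfbp1, a secreted protein that releases FGFs from the matrix, was higher. It had 570, 2043 and 683 normalised counts in WT, 1292, 2720 and 978 in CdxKO and 1289, 5027 and 1040 in T/BraKO, so that replicate 2 was high in every genotype and the ranges overlapped. Within replicate numbers Fgfbp1 was higher in 6 of 6 pairs (log2 fold change 0.88, SE 0.16, adjusted p 8.92e-05). Agreement of all 6 pairs was a condition for the genes in the plot of pair ratios, so for them it adds no support. Dusp9, a phosphatase that inactivates ERK, was also higher (log2 fold change 0.64, SE 0.11, adjusted p 2.47e-05).

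**Figure D2:**
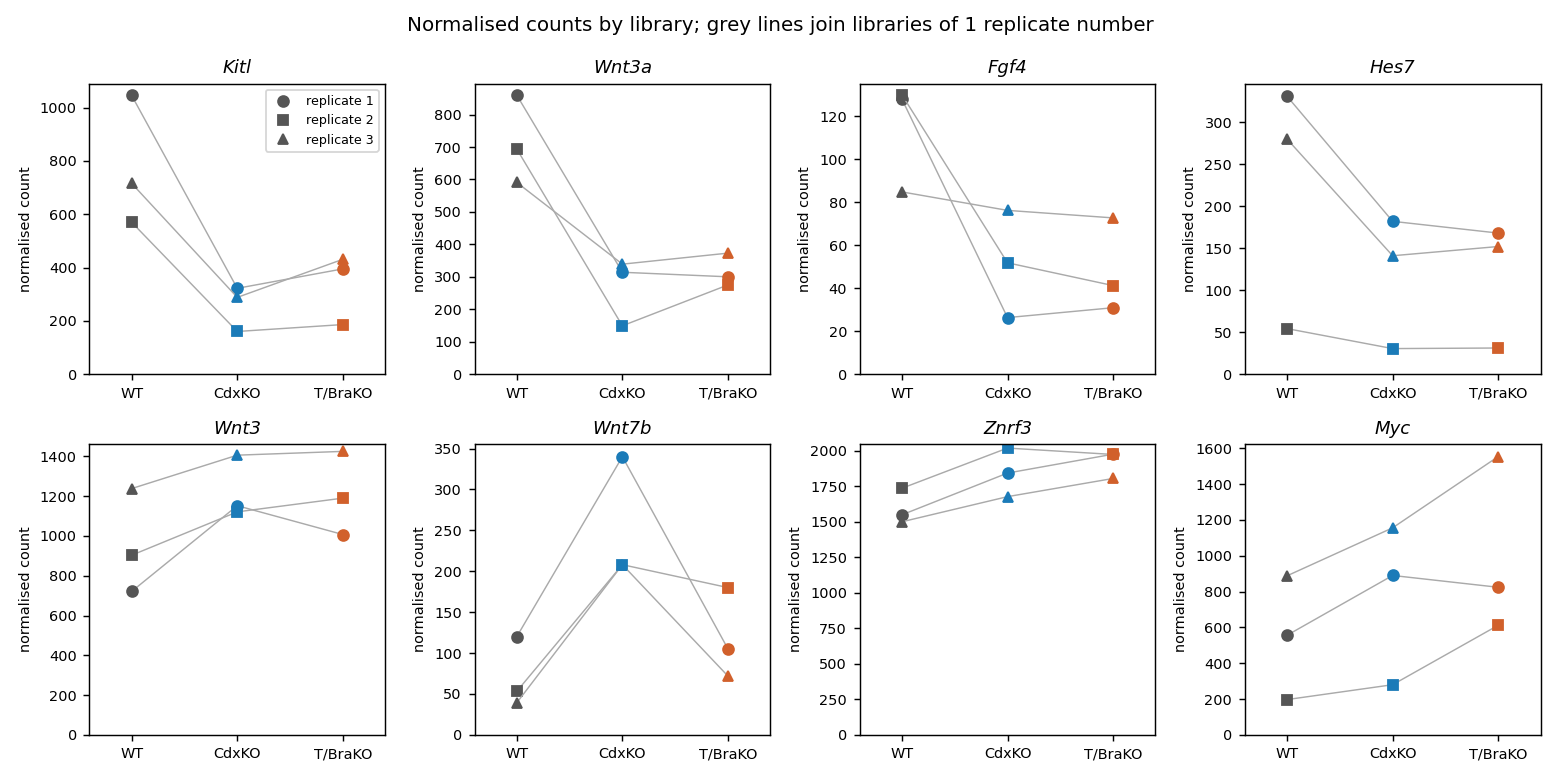
Normalised counts (y axis, from 0) of 8 ligand, signalling and transcription factor genes in each library, by genotype (x axis). Marker shapes are replicate numbers and grey lines join libraries with the same number. Kitl, Wnt3a and Hes7 fall along every line to both mutants, Fgf4 falls along 2 of the 3 lines and little in replicate 3, and Wnt7b rises further in CdxKO than in T/BraKO.

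Transcription factors stood on both sides. Hes7, a repressor of the somite segmentation clock, had 331, 54.2 and 280 normalised counts in WT, 182, 30.4 and 141 in CdxKO and 168, 31.1 and 152 in T/BraKO. Replicate 2 was low in all 3 genotypes, so the ranges overlapped, but the log2 ratio to the same-numbered WT library lay between -0.99 and -0.80 in all 6 pairs. Hes7 (chromosome 11, 69120404 to 69124055) had a pooled log2 fold change of -0.90 (SE 0.16, adjusted p 3.15e-05). Of 17 tested genes of paraxial mesoderm and segmentation, Hes7 was lower and Pcdh8 higher, and the list had a median of -0.05 in the pooled comparison, 0.14 in CdxKO and -0.40 in T/BraKO. In T/BraKO, Tbx6 and Dll1 changed by -3.30 and -1.06 on the log2 scale but had -0.27 and 0.06 in CdxKO, and neither was called in the pooled comparison. Pcdh8, a protocadherin, had 146, 168 and 182 in WT, 487, 332 and 166 in CdxKO and 355, 645 and 310 in T/BraKO, with CdxKO replicate 3 below WT replicate 3 (log2 fold change 1.12, SE 0.28, adjusted p 0.017). CdxKO alone did not call Pcdh8 (adjusted p 0.328, DESeq2). Nor did the DESeq2 fit by genotype, with the mean of both mutants against WT (adjusted p 0.0893).

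Irx3, an Iroquois homeobox factor of the early neural plate, had 354, 138 and 225 normalised counts in WT, 135, 91.1 and 94.1 in CdxKO and 232, 86.1 and 94.2 in T/BraKO. Each pair fell, as its choice required, and T/BraKO replicate 1 overlapped the WT range. The log2 fold change of Irx3 was -0.96 (SE 0.21, adjusted p 0.00184). It was the only called gene of 7 tested neural progenitor genes, of which 6 were negative (median -0.41). The zinc finger homeobox gene Zfhx4 fell from 543, 434 and 324 normalised counts in WT to 344, 261 and 293 in CdxKO and 328, 230 and 206 in T/BraKO, with overlap of replicate 1 of each mutant and WT replicate 3 (log2 fold change -0.64, adjusted p 0.00735). Arid3b, an AT-rich DNA-binding factor, had -0.32 (adjusted p 0.0142). Among higher genes, the forkhead factor Foxi3 had 60.8, 154 and 116 in WT, 143, 271 and 150 in CdxKO and 189, 320 and 208 in T/BraKO. All 6 pairs rose, as its choice required, and CdxKO replicates 1 and 3 lay below WT replicate 2 (log2 fold change 0.98, SE 0.21, adjusted p 0.00152). Myc had 556, 197 and 888 in WT, 890, 280 and 1156 in CdxKO and 824, 612 and 1554 in T/BraKO. WT replicate 2 was the lowest library for Myc and the ranges overlapped (log2 fold change 0.79, SE 0.20, adjusted p 0.0278). Myc kept its call in 3 of the 9 fits without 1 library (adjusted p up to 1), and CdxKO alone did not call it (adjusted p 0.376). The zinc finger gene Zfp428 had 0.43 in CdxKO and 0.82 in T/BraKO (pooled 0.65, adjusted p 0.00199).

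Promoter windows are shown for Kitl, Wnt3a, Sfn and Foxi3, the first genes of each direction, and for the others of the 20 genes in the plot of pair ratios whose window held a searched motif. They are the RefSeq windows of GRCm38.p6, the 250 bases before the transcript start, without bases that lie inside the annotated gene. They are written 5′ to 3′ on the gene's strand in lower case, and capitals mark a motif match on either strand. The motifs were the T-box site TCACACCT, the TCF/LEF site CTTTGAT and the CDX site TTTATNG, and no matches overlapped.
Kitl, chr10:100015571-100015629, plus strand: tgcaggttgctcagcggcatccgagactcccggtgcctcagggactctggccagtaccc
Wnt3a, chr11:59290753-59291001, minus strand: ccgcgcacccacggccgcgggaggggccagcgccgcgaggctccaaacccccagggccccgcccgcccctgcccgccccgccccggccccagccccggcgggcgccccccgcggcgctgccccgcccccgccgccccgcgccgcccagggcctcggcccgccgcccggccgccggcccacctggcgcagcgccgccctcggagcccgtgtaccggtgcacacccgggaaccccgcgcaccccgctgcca
Sfn, chr4:133602169-133602418, minus strand: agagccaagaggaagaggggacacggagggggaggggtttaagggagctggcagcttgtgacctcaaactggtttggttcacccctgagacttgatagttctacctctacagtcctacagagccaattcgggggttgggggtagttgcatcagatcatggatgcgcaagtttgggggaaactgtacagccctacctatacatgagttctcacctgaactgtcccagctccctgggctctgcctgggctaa
Foxi3, chr6:70956356-70956530, plus strand: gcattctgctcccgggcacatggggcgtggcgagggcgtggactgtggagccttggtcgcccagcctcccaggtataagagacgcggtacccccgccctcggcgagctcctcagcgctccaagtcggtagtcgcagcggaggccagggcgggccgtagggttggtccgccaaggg
Hes7, chr11:69120203-69120403, plus strand: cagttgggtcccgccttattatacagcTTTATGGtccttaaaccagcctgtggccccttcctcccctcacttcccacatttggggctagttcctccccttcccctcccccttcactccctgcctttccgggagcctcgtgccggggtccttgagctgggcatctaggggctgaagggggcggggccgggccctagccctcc
Itga8, chr2:12301945-12302194, minus strand: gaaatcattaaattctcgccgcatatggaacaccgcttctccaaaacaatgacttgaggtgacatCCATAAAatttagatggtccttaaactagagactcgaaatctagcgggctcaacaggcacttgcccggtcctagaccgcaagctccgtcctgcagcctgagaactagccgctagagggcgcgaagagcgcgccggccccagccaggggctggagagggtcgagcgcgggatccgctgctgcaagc
Hspb1, chr5:135887669-135887918, plus strand: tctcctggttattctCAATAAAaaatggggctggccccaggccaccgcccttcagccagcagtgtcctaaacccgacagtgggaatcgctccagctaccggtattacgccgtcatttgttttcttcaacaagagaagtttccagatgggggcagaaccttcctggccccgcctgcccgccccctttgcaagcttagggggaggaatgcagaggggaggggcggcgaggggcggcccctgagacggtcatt
Gm28043, chr17:29614539-29614788, plus strand: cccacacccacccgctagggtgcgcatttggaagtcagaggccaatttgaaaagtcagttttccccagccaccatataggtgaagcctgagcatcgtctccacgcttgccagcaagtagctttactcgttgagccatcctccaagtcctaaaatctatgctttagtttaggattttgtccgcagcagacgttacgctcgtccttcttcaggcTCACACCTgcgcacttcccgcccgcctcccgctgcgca

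A window was found for 63 of the 76 genes, 87 windows in all. The T-box letters stood in 1.15% of them, in Gm28043 alone, against 1.12% of all 32851 windows. The TCF/LEF letters stood in 3.45% (Bcat1, Mkrn1 and Prickle2) against 3.21%. The CDX letters stood in 8.05% (Got2, Hes7, Hspb1, Itga8, Oas3, Pcdh8 and Rab8b) against 9.81%. By direction, the CDX letters stood in 3 of 60 windows of higher genes (5%) and in 4 of 27 windows of lower genes (14.8%), a difference that was not tested. The capitals in Hes7 lie 223 to 217 bases before the RefSeq transcript start, which lies inside the annotated gene and past the end of the printed letters. A match is a description of letters, and distal elements were not searched.

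Imprinted genes that are expressed from the paternal allele were among those higher in both mutants, 4 in number. Mest, a hydrolase-family gene, had 3165, 1487 and 3710 normalised counts in WT, 4471, 2251 and 5140 in CdxKO and 4430, 2224 and 5314 in T/BraKO. The ranges overlapped because replicate 2 was low in every genotype, but the log2 ratio to the same-numbered WT library lay between 0.47 and 0.60 in all 6 pairs. Mest (chromosome 6, 30723547 to 30748465) had a pooled log2 fold change of 0.52 (SE 0.05, adjusted p 8.19e-19), 0.52 in CdxKO and 0.53 in T/BraKO, and was the 1 gene that edgeR also called (adjusted p 0.00536). It remained called with each of the 9 libraries left out.

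Zdbf2, a zinc finger gene, had 13979, 11200 and 13636 normalised counts in WT, 17462, 17039 and 17999 in CdxKO and 18890, 17188 and 17112 in T/BraKO. Every mutant library lay above every WT library (log2 fold change 0.45, SE 0.06, adjusted p 1.37e-08), and Zdbf2 remained called with each library left out. Peg10, derived from a retrotransposon, was the most abundant of the 76 genes at 528 TPM in WT. Its normalised counts were 59603, 46453 and 44037 in WT, 73111, 82986 and 57584 in CdxKO and 85422, 69173 and 55382 in T/BraKO, and all pairs rose (log2 fold change 0.49, SE 0.09, adjusted p 3.93e-05). Plagl1, a zinc finger transcription factor, had 644, 487 and 565 in WT, 1003, 988 and 849 in CdxKO and 759, 738 and 634 in T/BraKO. T/BraKO replicate 3 lay within the WT range, and CdxKO exceeded T/BraKO by 0.42 on the log2 scale (adjusted p 0.00163). The pooled log2 fold change of Plagl1 was 0.55 (SE 0.15, adjusted p 0.0458).

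In the list of imprinted genes 40 were tested, 4 were higher and none was lower, beside 0.352% and 0.183% of all genes tested. The list had a median of 0.20 in the pooled comparison, 0.34 in CdxKO and 0.05 in T/BraKO, with 27 genes positive. Of the neighbours of these genes, Sgce and Copg2 were not called. Sgce, which lies head to head with Peg10, had a log2 fold change of 0.69 for CdxKO, -0.28 for T/BraKO and a pooled value of 0.29 (adjusted p 0.93). Copg2, which overlaps Mest on the other strand, had -0.21 (adjusted p 0.119). The list as a whole was split between the mutants, with 17 genes called higher and 7 lower in CdxKO and 8 higher and 6 lower in T/BraKO. Over all genes tested, 5.31% were called in CdxKO and 9.68% in T/BraKO, in either direction. H19 and Nnat were higher in each mutant (H19 with 4.17 and 1.22, Nnat with 1.64 and 0.44), but by amounts that differed, and the pooled test called neither (adjusted p 0.101 and 0.357). None of 11 genes of DNA methylation and imprint maintenance was called (median 0.02).

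**Figure D3:**
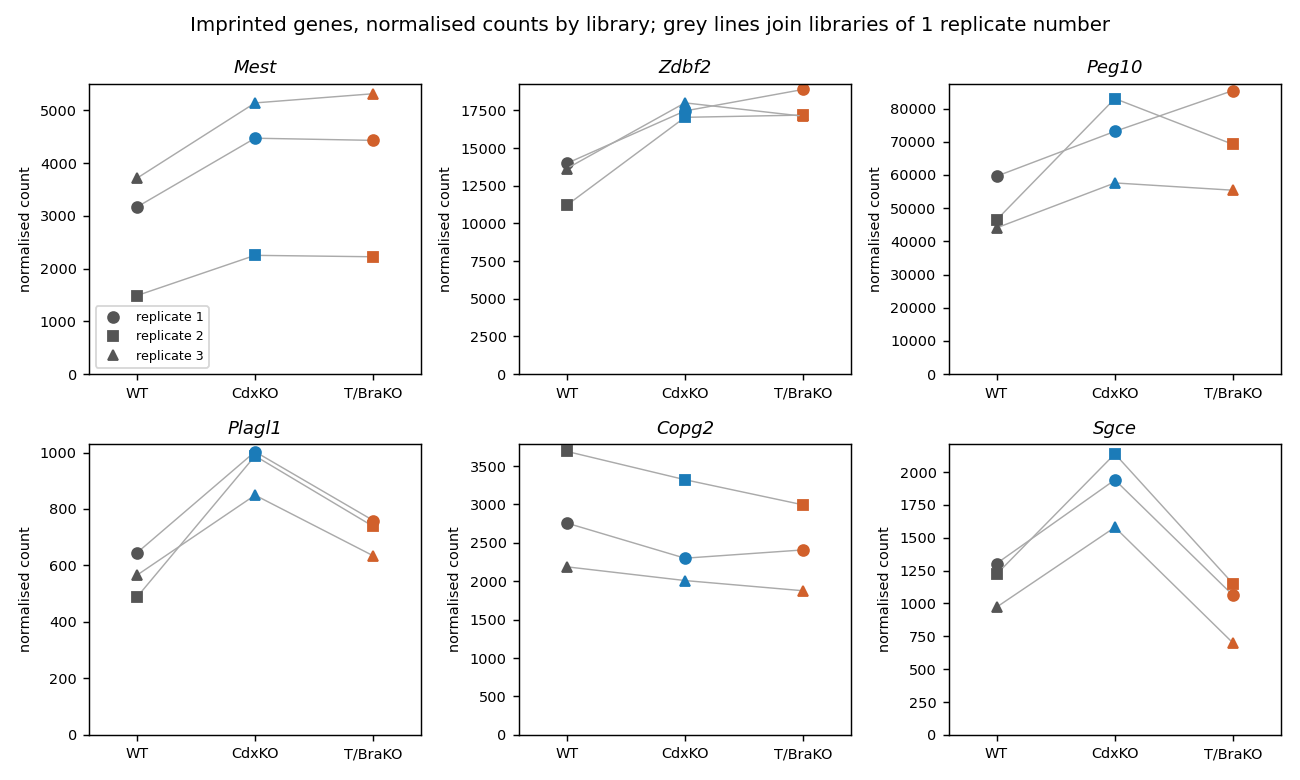
Normalised counts (y axis, from 0) of 6 imprinted genes in each library, by genotype (x axis), with marker shapes for replicate numbers and grey lines joining libraries with the same number. Mest, Zdbf2 and Peg10 rise along every line to both mutants by similar amounts, Plagl1 rises further in CdxKO, Sgce rises in CdxKO and not in T/BraKO, and Copg2 lies below WT along every line.

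Several called genes encode adhesion, matrix or cytoskeletal proteins, a grouping made for order and not tested. Itga8, an integrin subunit, had 574, 403 and 945 normalised counts in WT, 1238, 737 and 1380 in CdxKO and 965, 1000 and 1239 in T/BraKO. WT replicate 3 lay above CdxKO replicate 2, and all 6 pairs rose, as its choice required (log2 fold change 0.83, SE 0.14, adjusted p 2.47e-05). The claudin gene Cldn6, of epithelial tight junctions, had 1388, 2108 and 1619 in WT, 2638, 3223 and 2135 in CdxKO and 2043, 4109 and 1809 in T/BraKO, where replicates 1 and 3 lay within the WT range (log2 fold change 0.61, adjusted p 0.00151). It was the only called gene of 15 of the epithelial-mesenchymal transition list, whose median was 0.12. Has2, which makes hyaluronan, Tns1, a focal adhesion protein, and Nectin2, an adhesion receptor, had log2 fold changes of 0.45, 0.59 and 0.29. On the lower side stood Vcan, a hyaluronan-binding proteoglycan (-0.37, adjusted p 0.00222), the planar polarity gene Prickle2 (-0.50) and the cadherin gene Cdh6. Cdh6 had 412, 129 and 327 normalised counts in WT, 251, 102 and 242 in CdxKO and 266, 65.9 and 183 in T/BraKO, with overlapping ranges (log2 fold change -0.64, adjusted p 0.0286).

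Actc1, the alpha actin of heart muscle, had 477, 1484 and 427 normalised counts in WT, 962, 1945 and 473 in CdxKO and 1068, 2765 and 755 in T/BraKO. Replicate 2 was high in each genotype (log2 fold change 0.75, SE 0.16, adjusted p 0.00199), and the mutants differed, with 0.52 in CdxKO and 0.95 in T/BraKO. Acta1, the skeletal muscle alpha actin, had 219, 1010 and 103 in WT, 350, 1290 and 149 in CdxKO and 319, 1498 and 117 in T/BraKO (log2 fold change 0.49, adjusted p 0.017). Of the other cardiac markers, Tnnt2 was at or under 3 counts in every library, and Actc1 alone was called among the 3 of 5 that were tested. The cardiac list summed to 28.3 to 86.5 TPM in WT, 30.4 to 110 in CdxKO and 45 to 145 in T/BraKO. Most of these sums was Actc1 itself, with 21 to 75.6, 23.4 to 98.9 and 36.6 to 137 TPM, so they restate its change. Myh6 had 3.88 to 5.71 TPM in WT, 3.49 to 5.06 in CdxKO and 3.69 to 5.21 in T/BraKO. Sfn, the 14-3-3 sigma protein of epithelia, had the largest change among the higher genes that reached 50 normalised counts in a genotype and had all 6 pairs to 1 side. It had 829, 1291 and 552 normalised counts in WT, 2158, 2683 and 1309 in CdxKO and 1468, 4356 and 733 in T/BraKO (pooled log2 fold change 1.15, SE 0.29, adjusted p 0.0196). T/BraKO replicate 3 lay within the WT range, and Sfn was called in 4 of the 9 fits without 1 library (adjusted p up to 1).

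The small heat shock gene Hspb1 had 491, 548 and 396 normalised counts in WT, 836, 1088 and 671 in CdxKO and 688, 1184 and 481 in T/BraKO (pooled log2 fold change 0.74, SE 0.14, adjusted p 0.000109), and Hspa1b, of the inducible HSP70 family, had 0.50 (adjusted p 0.0286). Reads of Hspa1b can be shared with its near-identical copy, so its value is uncertain. S100a6, a calcium-binding protein, had 403, 353 and 228 in WT, 722, 910 and 531 in CdxKO and 452, 684 and 261 in T/BraKO. CdxKO lay above WT throughout and T/BraKO did not, and the mutants differed by 0.69 (adjusted p 7.43e-05). No gene of the integrated stress response list was called, although all 15 were positive (median 0.34, with 0.49 in CdxKO and 0.18 in T/BraKO). Of 15 immediate early genes, 14 were positive and none was called (median 0.30), beside 52.6% of all genes tested that were positive.

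Enzymes and transporters follow, again only for order. Tdh, the threonine dehydrogenase of mouse stem cells, had 242, 592 and 1132 normalised counts in WT, 572, 696 and 1382 in CdxKO and 490, 805 and 1926 in T/BraKO. Replicate numbers spread it more widely than genotype did, and all 6 pairs rose, as its choice required (log2 fold change 0.65, SE 0.15, adjusted p 0.00996). CdxKO alone did not call Tdh (adjusted p 0.161, DESeq2). Bcat1, which transaminates branched-chain amino acids, had 0.38 (adjusted p 5.41e-05). The amino acid transporters Slc7a3 and Slc7a7 each had 0.42, and Mars, the methionyl-tRNA synthetase, had 0.22. The aspartate aminotransferase Got2 and its relative Got1l1 were lower, at -0.19 and -0.80. Got1l1 had 358, 598 and 211 normalised counts in WT, 192, 416 and 163 in CdxKO and 199, 239 and 107 in T/BraKO (adjusted p 0.0157). Slc2a3, the neuronal and embryonic glucose transporter, had 24445, 35823 and 13182 in WT, 11975, 23340 and 10041 in CdxKO and 20071, 26612 and 11259 in T/BraKO (log2 fold change -0.48, adjusted p 0.0484). It was the only called gene of 23 glycolysis and hypoxia genes, whose median was -0.01. The call of Slc2a3 held in 2 of the 9 fits without 1 library (adjusted p up to 1), and T/BraKO alone did not call it (adjusted p 0.216).

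The protein tyrosine phosphatase Ptpn13 showed a small change with little spread. It had 2265, 2379 and 2112 normalised counts in WT, 1668, 1829 and 1696 in CdxKO and 1798, 1744 and 1641 in T/BraKO. The groups did not overlap, and the log2 fold change was -0.38 in the pooled comparison and in each mutant (pooled SE 0.06, adjusted p 1.95e-06). C77080 was its counterpart among higher genes. It had 2445, 2290 and 2289 in WT, 2956, 3038 and 2707 in CdxKO and 3135, 3046 and 2932 in T/BraKO (pooled log2 fold change 0.34, SE 0.06, adjusted p 2.47e-05). Peli3, an E3 ligase of the Pellino family, had 254, 170 and 171 in WT, 133, 116 and 72.4 in CdxKO and 135, 116 and 96 in T/BraKO, with no overlap (log2 fold change -0.83, adjusted p 0.00158), and its relative Peli2 had -0.32 (adjusted p 0.0157). Gm28043 had 149, 191 and 122 in WT, 85.3, 91.1 and 92.2 in CdxKO and 72.8, 94.3 and 102 in T/BraKO (log2 fold change -0.77, adjusted p 0.0325). Only 1 of the 9 fits without 1 library still called Gm28043 (adjusted p 0.0393 to 1). It overlaps Cmtr1 and Rnf8 on the same strand, so its counts are uncertain.

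The other higher genes were Fam43b, Epp13, Card10, Alg13, Mkrn1, Lypd6, Samd4, Elavl2, Ap1s3, Pttg1, B4galt5, Arl4c, Tuba4a, Cdk6, Ell2, Nit2, Serp1 and Naa30, with log2 fold changes from 0.22 for Naa30 to 1.62 for Fam43b, which was the least abundant gene of the set at 0.34 TPM in WT. Alg13, an enzyme of protein N-glycosylation, had the smallest adjusted p among these (0.59, SE 0.09, adjusted p 9.21e-08), with 2520 to 3549 normalised counts in WT and 3983 to 5963 in the mutants, which did not overlap. The other lower genes were Oas3, Dnah8, Rab8b, Ssbp2, Cnksr3, Rpgrip1l, Smarca1, Fto and Cnot1, from -0.59 for Oas3 to -0.24 for Cnot1. Rab8b, a small GTPase of vesicle transport, had -0.46 (SE 0.08, adjusted p 2.47e-05). Just inside the threshold stood Naa30, Znrf3 and Nectin2 with adjusted p of 0.0485, 0.0491 and 0.0491, and just outside it Rap2b, Bbs2 and Frmd8 with 0.0525, 0.0556 and 0.0556.

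In the comparisons of each mutant with WT, which use the same 3 WT libraries, 66 of the 76 genes were called in CdxKO and 71 in T/BraKO, beside 5.31% and 9.68% of all tested genes. These shares are high by construction, since the 76 were chosen on the same libraries, and nothing is read from them. Both comparisons called 62 of them, and Slc7a7 was called in neither. In all, 94 genes were called in each mutant in the same direction, and the 62 made up 66% of those and 81.6% of the 76. The pooled test did not call the other 32, and 11 of these differed between the mutants, among them Fgf8, H19 and Nnat. The change was larger in CdxKO for 36 of the 76 and larger in T/BraKO for 40.

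A total of 8 of the 76 genes (10.5%) differed in the direct comparison of CdxKO with T/BraKO, beside 14.6% of all genes tested. The pooled test counts a difference between the mutants as spread, so these are genes selected in part for a small difference. The changes of Wnt7b, S100a6 and Plagl1 were larger in CdxKO. Those of Actc1, Zfp428, Mkrn1, B4galt5 and Hprt were larger in T/BraKO. For the remaining 68 the difference did not pass the threshold, which does not show that the mutants changed alike. For Mest the log2 fold change in CdxKO was 0.01 below that in T/BraKO (SE 0.06), and for Kitl it was -0.38 (SE 0.16, adjusted p 0.0813), a larger drop in CdxKO.

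**Figure D4:**
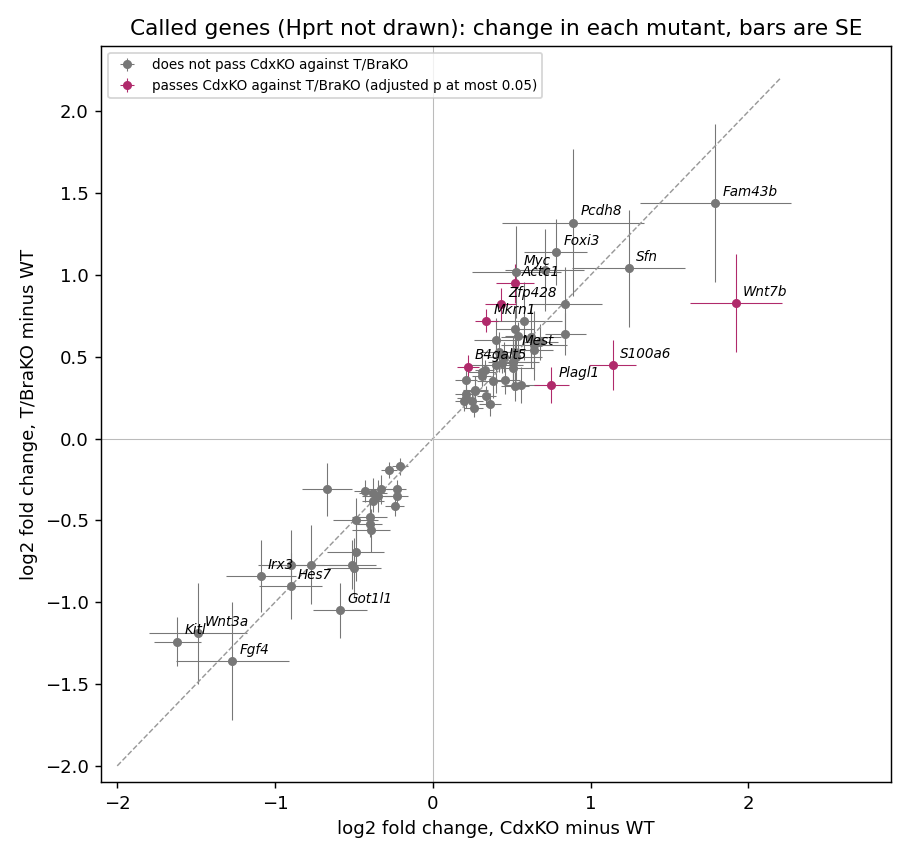
Log2 fold change in CdxKO (x axis) and in T/BraKO (y axis), each against the same 3 WT libraries, for 75 of the 76 called genes, with SE bars and a dashed line of equal change. Hprt is not drawn. All points lie in the upper right or lower left because the genes were chosen for it, and the coloured points are the 7 drawn genes that differed between the mutants.

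The lower genes were most numerous on chromosome 8. That chromosome held 6 of the 26 lower genes and 1 of the 50 higher ones, and 5.37% of all 12316 expressed genes, with a median log2 fold change of -0.035 over its 661 expressed genes (mean normalised count of at least 50). Pooled medians of the other chromosomes lay between -0.015 and 0.032. These can hide a shift in 1 pair. Chromosome 11, with 1019 expressed genes, had a median of -0.116 in T/BraKO replicate 2, beside 0.004 and 0.025 in T/BraKO replicates 1 and 3. It held 3 of the higher and 2 of the lower genes, among them Wnt3a, Hes7, Wnt3 and Znrf3. Whether that shift has a part in their values was not tested. When chromosomes were divided into 10-Mb bins with at least 20 such genes, a division chosen after the data were seen, the bin from 90 to 100 Mb of chromosome 8 had the lowest median of all 219 bins, at -0.169. The next lowest, also on chromosome 8, was -0.070, and the highest, at 0 to 10 Mb of chromosome 14, was 0.130. In CdxKO alone, the bin from 60 to 70 Mb of chromosome 13 had -0.164, beside -0.020 in T/BraKO. Of the 46 genes in the chromosome 8 bin from 90 to 100 Mb, 41 had a negative pooled fold change. The median there was -0.172 for CdxKO and -0.183 for T/BraKO. The median was negative in each pair, from -0.297 in T/BraKO replicate 3 to -0.062 in T/BraKO replicate 2. The bin held 5 of the 26 lower genes and 0.373% of the expressed genes. As it was picked for its median, these values are a description. Rpgrip1l (91217030 to 91313262), a protein of the ciliary transition zone, and Fto (91313525 to 91668439), an RNA demethylase, are adjacent, and Irx3 (91798525 to 91802067) lies close by. Cnot1 (95719451 to 95807464), the scaffold of the CCR4-NOT complex, and Got2 (95864134 to 95888547) lie further along. The log2 fold changes of Rpgrip1l, Fto, Cnot1 and Got2 were -0.35, -0.27, -0.24 and -0.19, and that of Irx3 was -0.96. Whether the shift of the bin has a part in these calls was not tested.

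**Figure D5:**
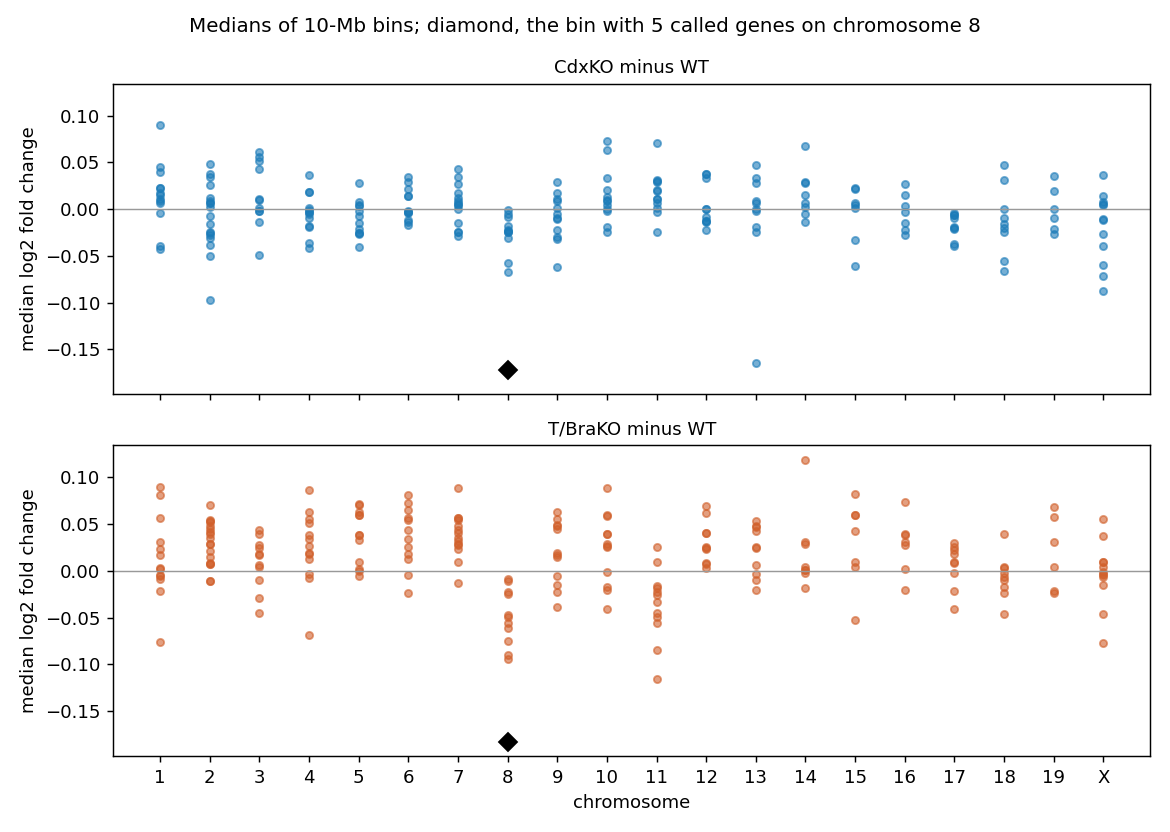
Median log2 fold change of expressed genes in 10-Mb bins (points), by chromosome (x axis), for CdxKO minus WT (upper panel) and T/BraKO minus WT (lower panel), which share the WT libraries. The diamond is the chromosome 8 bin that held 5 of the lower genes, at -0.172 and -0.183, the lowest point of both panels.

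Of the lists not yet described, the caudal one alone held a called gene. Of 16 caudal epiblast genes, all tested, Wnt3a alone was called, and the list had medians of 0.04 in the pooled comparison, -0.18 in CdxKO and 0.29 in T/BraKO. Against WT, 0 were called higher and 7 lower in CdxKO, and 7 higher and 4 lower in T/BraKO. The lower genes include the targeted Cdx1, Cdx2 and Cdx4 in CdxKO and T in T/BraKO, so these counts and medians are not independent of the mutations. Over all genes tested, 5.31% were called in CdxKO and 9.68% in T/BraKO, in either direction. Trunk Hox genes had a median of -5.61 in CdxKO and 0.61 in T/BraKO, and none of the 7 tested was called in the pooled comparison. The anterior Hox genes had -2.46 and 0.38, and none of 13 was called. No gene was called among those tested for anterior streak and mesendoderm (15, median 0.02), lateral and extraembryonic mesoderm (13, -0.23), BMP response (12, 0.10), primed epiblast (16, 0.17) or naive pluripotency (12, 0.23). The same held for the germline list (8, -0.29), p53 targets (17, 0.07), cholesterol and fatty acid synthesis (22, 0.03), extracellular matrix and integrins (17, 0.04), retinoic acid (12, 0.14) and Eph receptors and ephrins (18, 0.07). Over all genes tested the median was 0.008, with 52.6% positive.

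Many calls were lost when libraries were left out 1 at a time. Of the 32 genes named by the rule or the lists, 31 kept the call with TMM factors and all 32 with a count filter. Without WT replicate 1 or WT replicate 2, 8 were called in each case, and without WT replicate 3, 18. Because of the block, these fits lose the mutant libraries of that number from the contrast with WT too. Their counts therefore do not measure the weight of 1 library. Leaving out 1 mutant library kept between 21 (without CdxKO replicate 1) and 27 (without CdxKO replicate 2). Kitl, Wnt3a, Zdbf2 and Mest were called in all 9 of these fits. Itga8, Hspb1, Ptpn13 and Peg10 were called in 8, Wnt3, Pcdh8 and Fgfbp1 in 5, Wnt7b in 4, S100a6 and Plagl1 in 3 and Cdh6 in 2. No named gene changed direction in any fit.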

How the data were processed

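Poly(A) RNA of 9 cultures, 3 per genotype, was sequenced by the authors as 76-base single-end, strand-specific reads. Per the labels and the study's methods, reads were trimmed with cutadapt 1.16, aligned with STAR 2.5.2a and quantified with RSEM 1.3.0 against RefSeq genes on mm10. The authors deposited expected counts, estimated per gene by RSEM and fractional in 3.75% to 4% of values per library, and TPM, scaled by the authors' software per length and to a fixed total. TPM was used only for levels between genes.

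After rounding, the expected counts were fitted in R 4.3.3 with the Wald test of DESeq2 1.42.0, the tool that the study's methods name, on all 9 libraries with the terms replicate number and side (mutants or WT), default size factors and unshrunken fold changes. Adjusted p are Benjamini-Hochberg values over all genes tested, at most 0.05 for a call. Each mutant against WT and CdxKO against T/BraKO came from a second fit with replicate number and genotype. Alternatives were edgeR 4.0.16 (quasi-likelihood), TMM factors, keeping only genes that reached 10 counts in 3 or more libraries, no block, the mean of both mutants in the fit by genotype, stricter thresholds and leaving out replicate numbers or libraries. Code was tested on simulated data. The replicate numbers pair the libraries: same-numbered libraries deviated together from their group means, with a mean r of 0.703 (lowest 0.532) over 9 pairs and 12316 genes. The p-values measure the spread between these cultures, and in the pooled fit that spread also holds the difference between the 2 mutants.

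Genes named with values were the 10 with the largest change in each direction whose mean normalised count reached 50 in 1 genotype or more, with all 6 pairs to 1 side. Also named were the targeted genes, Hprt, Y-linked genes, Wnt3a, Ptpn13, Zdbf2, C77080 and list members, up to 4 per list and direction. Other names account for the full set or were chosen after their values were seen. The members, lists and tests were chosen with earlier results of these data known. Positions follow GENCODE M21 (GRCm38, the assembly behind mm10). No pair of libraries of a group agreed within sampling noise (chi-square per degree of freedom at least 33.3).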

Additional observations from a re-analysis of the deposited data

Results flagged for a closer look

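Of the genes named with values, 5 changed by different amounts in the mutants when CdxKO was tested against T/BraKO (DESeq2, genotype and replicate number). On the log2 scale, CdxKO minus T/BraKO was 1.09 for Wnt7b, 0.69 for S100a6, 0.42 for Plagl1, -0.43 for Actc1 and -0.39 for Zfp428, with adjusted p of 0.00207, 7.43e-05, 0.00163, 0.00284 and 0.000877. For these genes both mutants lay on the same side of WT, and the mean of the sides describes neither mutant exactly.

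For Wnt3a, CdxKO replicate 2 (149 normalised counts) stood apart from the other 5 mutant libraries (275 to 373). On the log2 scale its gap to the next library was 0.666 of the range of the 6, above the limit for 6 samples. Such a gap arises by chance in about 1 of 20 groups. Without this library the pooled change of Wnt3a was -1.18 on the log2 scale (adjusted p 9.5e-11).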

How the results depend on the processing

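With TMM factors or the count filter, all 5 counts stayed within 1.5 times the reported ones. Genes higher and lower in both mutants, which equal the calls of each sign (50 and 26), became 2 and 3 with no replicate block, 1 and 0 with edgeR and the block, 20 and 12 at an adjusted p of at most 0.01, and 5 and 3 at an absolute log2 fold change above 1. In the DESeq2 fit by genotype they became 272 and 189, or 293 and 280 before the same-direction rule. In the same fit with edgeR, added after the data were seen, they became 155 and 153, or 168 and 221. Genes that differed between the mutants (8) became 191 in the DESeq2 fit by genotype, 0 with no replicate block, 0 with edgeR, 3 at the stricter p and 2 at the larger fold. Of the 32 named genes, 5 were called with no replicate block, 1 with edgeR and the block and 30 with edgeR by genotype, and none changed direction under any of these settings.

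Leaving out a replicate number or a library gave 7 to 73 genes higher and 3 to 45 lower in both mutants, 7 to 75 and 3 to 45 on the mutant side, and 0 to 11 that differed between the mutants. The lowest counts came without WT replicate 1 or 2, where the mutant libraries of the same number also drop out of the contrast with WT.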
